A study of Mus musculus with 24 samples.

Results

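Expression was compared in miR-125b cells between day 10 of doxycycline and day 13 after the drug had been taken away on day 10, with 3 libraries on each side, so 6 of the 24 libraries of the series. The libraries were chosen by their labels alone and were paired by the replicate numbers R1 to R3 that the titles carry. All groups were fetal liver cells taken from mouse embryos at E12.5-13.5. The mice were of the B6J.129(Cg) background and carried the Fezh/J allele of Gt(ROSA)26Sor, which expresses Cas9 and EGFP from the CAG promoter at the Rosa26 locus. Every group, the controls included, carried a guide RNA against Gata1 (sgGata1), and the labels call the cells Gata1s-FLCs. A second transgene was miR-125b or miR-ctrl, the control construct. The miR-125b day 10 group had received doxycycline at 1 µg/mL for 10 days. The miR-125b day 13 withdrawal group had its doxycycline removed on day 10. Libraries of miR-ctrl cells at the same 2 conditions (6) and of miR-125b cells kept on doxycycline to day 13 (3) served for comparison. The remaining libraries of the 24 entered the same fit. They were miR-ctrl cells kept on doxycycline to day 13, and miR-125b and miR-ctrl cells at day 2, after 48 h of doxycycline. Doxycycline was at 1 µg/mL in all of these. The labels do not say whether the replicates were separate cultures, embryos or pools, so the p-values measure the spread between these libraries, which may be technical.

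GATA1 is the transcription factor that drives megakaryocyte and erythroid maturation, and GATA1s is its short form without the amino-terminal activation domain, known from the megakaryoblastic leukemia of children with Down syndrome. miR-125b is a microRNA encoded on human chromosome 21 and at another locus. A microRNA guides an Argonaute protein to messenger RNAs that pair with its seed, the bases 2 to 8 counted from the 5′ end, and the paired messenger RNA is repressed or degraded. A target is therefore commonly expected to be low while the microRNA is made and to recover when it is gone. The title of the series names ARID3A, a DNA-binding protein with an AT-rich interaction domain, as a target in megakaryocytic cells.

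The mature miR-125b-5p of mouse is shown with its seed in capitals, followed by 28-base windows from the 3′ UTRs of the genes on which the results below turn. In the windows the capitals mark the 7-base match to the seed, CTCAGGG, or the match followed by an A, CTCAGGGA. The microRNA is from RefSeq (GRCm38.p6), where the same mature sequence lies at chr9:41581940-41581961 and chr16:77646279-77646300, both on the plus strand. The windows were read from GRCm38 with the GENCODE M21 annotation, at chr10:79952877-79952904 and chr10:79953810-79953837 (plus strand) for Arid3a, chr6:88840235-88840262 (minus) for Abtb1, chr4:11170338-11170365 (plus) for Trp53inp1 and chr10:45378788-45378815 (minus) for Lin28b.
mmu-miR-125b-5p: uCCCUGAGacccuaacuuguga
Arid3a, first site: cctcctgtgcCTCAGGGAtgacagtgct
Arid3a, later site: gggtaactggCTCAGGGAtatagcagcc
Abtb1: catctcctacCTCAGGGtcttctcagtt
Trp53inp1: aaaatctattCTCAGGGtcagccatata
Lin28b: aagaactttgCTCAGGGAacataccata
Arid3a has 6 such matches in an annotated 3′ UTR of 3082 bases, and the other 3 genes have 1 each. A match is a description of the sequence and not a shown binding site.

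The 6 libraries held 15845604 to 19374844 counts, with 17158 to 17937 genes detected. Ptprc (CD45, on all white blood cells) lay between 52.6 and 86.3 CPM (counts scaled to a common library size), Kit (the stem cell factor receptor) between 22.8 and 27.1 and Itga2b (CD41, on megakaryocytes and their progenitors) between 1099 and 1602. Of markers for other cells, Cd3e (T cells) had 0 counts in all 6 libraries, which allows up to 3 counts per library, Alb (hepatocytes) had 1 count in all, and Cdh5 (endothelium) had 2 counts at day 10 and 3 at day 13. Afp, also of hepatocytes, lay between 1.88 and 3.39 CPM, and Col1a1 (stroma) and Csf1r and Adgre1 (macrophages) did not pass 2.0 CPM in any of the 6. The precursor genes Mir125b-1 and Mir125b-2, Mir99ahg (the host of the latter) and the related Mir125a had 0 counts in all 24 libraries (up to 3 per library allowed), so the microRNA itself was not detectable here. Among the 24 libraries, control withdrawal R1 stood apart, with 3.31% of its counts on mitochondrial genes (1.28% to 1.97% in the other 23), 16532 genes detected (16784 to 17937) and 6.80% of its counts in the 10 most abundant genes (4.58% to 5.59%). It is no library of the main comparison, but it enters the shared spread and the control values. In bulk samples, fewer cells of a type and less RNA per cell cannot be told apart.

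Arid3a was examined first. It had 32.8, 32.8 and 29.8 CPM in R1, R2 and R3 at day 10 and 31.4, 35.6 and 26.7 CPM in the libraries labelled withdrawal at day 13. The groups overlapped, and the log2 fold change was -0.03 ± 0.17 (SE), with an adjusted p of 0.942 by edgeR's quasi-likelihood test. The libraries labelled continued doxycycline had 45.4, 57.5 and 53.7 CPM, all above the 6 others. Their log2 fold change against day 10 was 0.71 ± 0.16 (edgeR adjusted p 0.00974). The control cells had 50.8, 53.6 and 71.0 CPM at day 10 and 68.1, 64.1 and 76.3 CPM at day 13 withdrawal. Compared directly at day 13, the libraries labelled withdrawal differed from those labelled continued by -0.74 ± 0.16. This did not pass (edgeR adjusted p 0.189, 0.372 without the block). By level, the named target thus stayed near day 10 in the libraries labelled withdrawal and lay higher in those labelled continued. Under these labels, that is the reverse of the order commonly expected of a target. The direct difference was not called, and the cause of this order was not tested. The groups are named below as "labelled withdrawal" and "labelled continued" because of this order, and each direction holds for the libraries so labelled. Gata1, the gene that the guide targets, had 300, 411 and 309 CPM at day 10 and 205, 366 and 213 CPM in the libraries labelled withdrawal. It was lower in 3 of 3 pairs at a log2 fold change of -0.42 ± 0.15, which did not pass (edgeR adjusted p 0.108, 0.647 without the block). In the fit without control withdrawal R1, chosen after the data were seen, the edgeR adjusted p of Gata1 was 0.0351. Counts summed over the gene do not separate GATA1s from the full-length form.

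Across all genes, 715 of the 13419 tested differed between the libraries labelled withdrawal and day 10 at an adjusted p under 0.05 (edgeR with the replicate number as a block), which is 5.33%. Of these, 378 were higher (2.82%) and 337 lower (2.51%) after the 3 days. The rises were small, with a median of 0.39 on the log2 scale, against a median size of 0.69 for the falls, and 99 genes passed a change of 1 in either direction. The same direction in 3 of 3 pairs was seen for 712 of the 715, against 51% of all genes tested, and the groups did not overlap for 581, against 23.5% of all. The 715 were selected by a test on these same pairs, so these counts are no separate support. Without the block only 24 genes passed (13 higher, 11 lower), all of them among the 715 with the same direction. Leaving out 1 library gave 599 genes without withdrawal R1 and 1692 without day 10 R2, but 0 without withdrawal R2, withdrawal R3, day 10 R1 or day 10 R3 (2043 to 2446 genes at an unadjusted p under 0.05 in those 4 fits). All 715 kept their sign in each of the 6 fits, which share the other libraries with the main fit. Without control withdrawal R1, 1553 genes passed (825 higher, 728 lower), all 715 among them with the same direction, in a fit chosen after the data were seen. That fit tested 13687 genes. Its list counts, given next, stand beside 825 higher and 728 lower of all 13687. These are larger shares than the 2.82% and 2.51% of the main fit. Without control withdrawal R1, 13 of 43 DNA replication genes were higher and 0 lower. Lower were 9 of 33 p53 targets, 8 of 32 interferon-stimulated and 9 of 18 MHC class I and antigen loading genes. So were 10 of 80 cytosolic ribosomal protein genes and 6 of 42 literature targets of miR-125b, and 0 were higher in each of these lists. Of 76 mitochondrial ribosomal protein genes 8 were higher and 1 lower. Of 31 amino acid and ATF4 genes 6 were higher and 2 lower, and of 30 lysosome and autophagy genes 2 and 7.

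**Figure D1:**
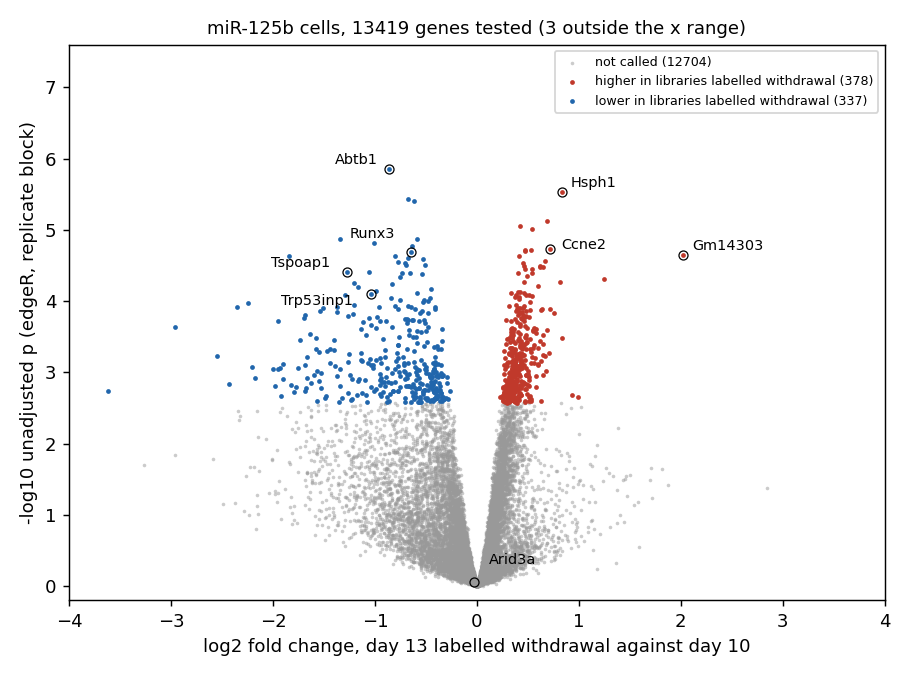
The x axis gives the log2 fold change of the libraries labelled withdrawal at day 13 against day 10 in miR-125b cells, and the y axis -log10 of the unadjusted edgeR p, with 1 point for each of 13419 genes (3 lie outside the x range). The 378 higher genes (red) sit close to 0, while the 337 lower genes (blue) spread further, and Arid3a lies at the bottom near -0.03.

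The genes with known or proposed miR-125b sites came next. A list of 52 targets from the literature had 42 members tested. Of these 0 were higher and 3 lower (Abtb1, Bbc3 and Trp53inp1), beside 2.82% and 2.51% of all genes. The median log2 fold change of the 42 was -0.03, against -0.02 over all genes, and its sign turned with single libraries (0.04 without day 10 R2, 0.007 without day 10 R1, and -0.08 without day 10 R3). Against day 10, the libraries labelled continued had a list median of 0.13 with 9 members higher and 2 lower, against 6.48% higher and 6.93% lower among all genes. Both comparisons use the same day 10 libraries.

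Abtb1, an ankyrin repeat and BTB domain protein (ENSMUSG00000030083, chr6:88835914-88841984, minus strand), had the lowest p of all genes. It had 57.6, 59.1 and 59.2 CPM at day 10 and 30.4, 35.9 and 30.9 CPM in the libraries labelled withdrawal. All 3 withdrawal libraries lay below all 3 day 10 libraries, by 1.82-fold, at a log2 fold change of -0.86 ± 0.13 (SE, edgeR adjusted p 0.0133, 0.0554 without the block). The libraries labelled continued had 48.4, 59.0 and 68.6 CPM, around the day 10 level. Control cells had 65.9, 106 and 75.5 CPM at day 10 and 57.0, 86.5 and 86.8 CPM at day 13 withdrawal, a log2 fold change of -0.10. The change in miR-125b cells differed from that in control cells by -0.76 ± 0.18 (edgeR adjusted p 0.0492).

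Trp53inp1, a stress protein induced by p53, had 25.6, 26.7 and 44.2 CPM at day 10 and 15.2, 15.04 and 16.1 CPM in the libraries labelled withdrawal. The groups did not overlap, and day 10 R3 was the highest of the 6. The log2 fold change was -1.04 ± 0.21 (edgeR adjusted p 0.0180), against 0.38 in control cells, and the difference between the arms was -1.42 ± 0.30 (edgeR adjusted p 0.0352). Bbc3, which encodes the pro-apoptotic protein PUMA, had 150, 127 and 237 CPM at day 10 and 86.1, 91.1 and 102 CPM in the libraries labelled withdrawal. It fell by 0.85 ± 0.17 on the log2 scale (edgeR adjusted p 0.0183), again with no overlap and with day 10 R3 highest.

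Sequence matches were counted for all genes with an annotated 3′ UTR. Of 2019 tested genes with at least 1 CTCAGGG in the longest 3′ UTR, 41 were higher (2.03%) and 63 lower (3.12%). Of 9659 without it, 332 were higher (3.44%) and 240 lower (2.48%). The medians were -0.01 in both sets. Where the match was followed by an A (718 genes), 14 were higher and 25 lower, with a median of -0.02. Over all genes these shares were 2.82% and 2.51%. The UTRs come from the annotation and not from these cells.

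The libraries labelled withdrawal and those labelled continued, both at day 13, differed at 7 genes (0.0522% of those tested), 3 higher (0.0224%) and 4 lower (0.0298%) in the libraries labelled withdrawal, and at 0 without the block (297 genes at an unadjusted p under 0.05). The 4 lower genes were Abtb1, Zfp385a, Lin28b and Tmem123. Each has a CTCAGGG in its 3′ UTR, as have 2019 of all tested genes, beside 9659 without it. Lin28b, an RNA-binding protein of fetal blood progenitors that blocks let-7 maturation, had 39.2, 37.1 and 38.6 CPM in the libraries labelled withdrawal and 58.4, 60.8 and 50.9 CPM in those labelled continued. At day 10 it had 33.2, 37.0 and 33.8 CPM. The log2 difference at day 13 was -0.56 ± 0.10 (edgeR adjusted p 0.0435), and the change from day 10 to the libraries labelled withdrawal was 0.14 ± 0.10 (edgeR adjusted p 0.430), ranging from 0.06 without day 10 R1 to 0.23 without day 10 R2. Zfp385a, a zinc finger protein, had 284, 375 and 255 CPM at day 10, 247, 335 and 272 CPM in the libraries labelled withdrawal and 356, 467 and 413 CPM in those labelled continued, a difference at day 13 of -0.54 ± 0.08 (edgeR adjusted p 0.0132). Tmem123 differed by -0.39 ± 0.07 (edgeR adjusted p 0.0435). In Lin28b and Zfp385a, and in Arid3a, which was not called, the libraries labelled withdrawal thus lay near day 10 and those labelled continued above both. Other called genes had other orders. Abtb1 stood at -0.01 against day 10 in the libraries labelled continued and at -0.86 in those labelled withdrawal. In Cd151, given next, the libraries labelled continued lay below both.

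The 3 genes higher in the libraries labelled withdrawal were Cd151, Lamc1 and Rapgef4. Cd151, a tetraspanin of the cell surface and of platelets, had 38.0, 40.1 and 42.2 CPM in them, 23.2, 24.5 and 29.7 CPM in the libraries labelled continued and 41.4, 40.5 and 49.6 CPM at day 10 (difference at day 13 0.64 ± 0.12, edgeR adjusted p 0.0435). Lamc1, a laminin chain of basement membranes, had 24.9, 16.4 and 19.8 CPM against 14.1, 10.3 and 9.83 CPM (0.84 ± 0.16, edgeR adjusted p 0.0435). Rapgef4, a cAMP-activated exchange factor for Rap GTPases, had 1.52, 0.93 and 1.81 CPM against 0, 0.112 and 0 CPM, too few counts on the continued side for a fold. At day 10 its level was 0.958, 1.07 and 3.24 CPM. Cd151 and Lamc1 each hold a CTCAGGG in the 3′ UTR too. Leaving out 1 library gave 0 to 2 of these calls: 2 without continued R2, and 0 without any other of the 6 libraries compared.

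**Figure D2:**
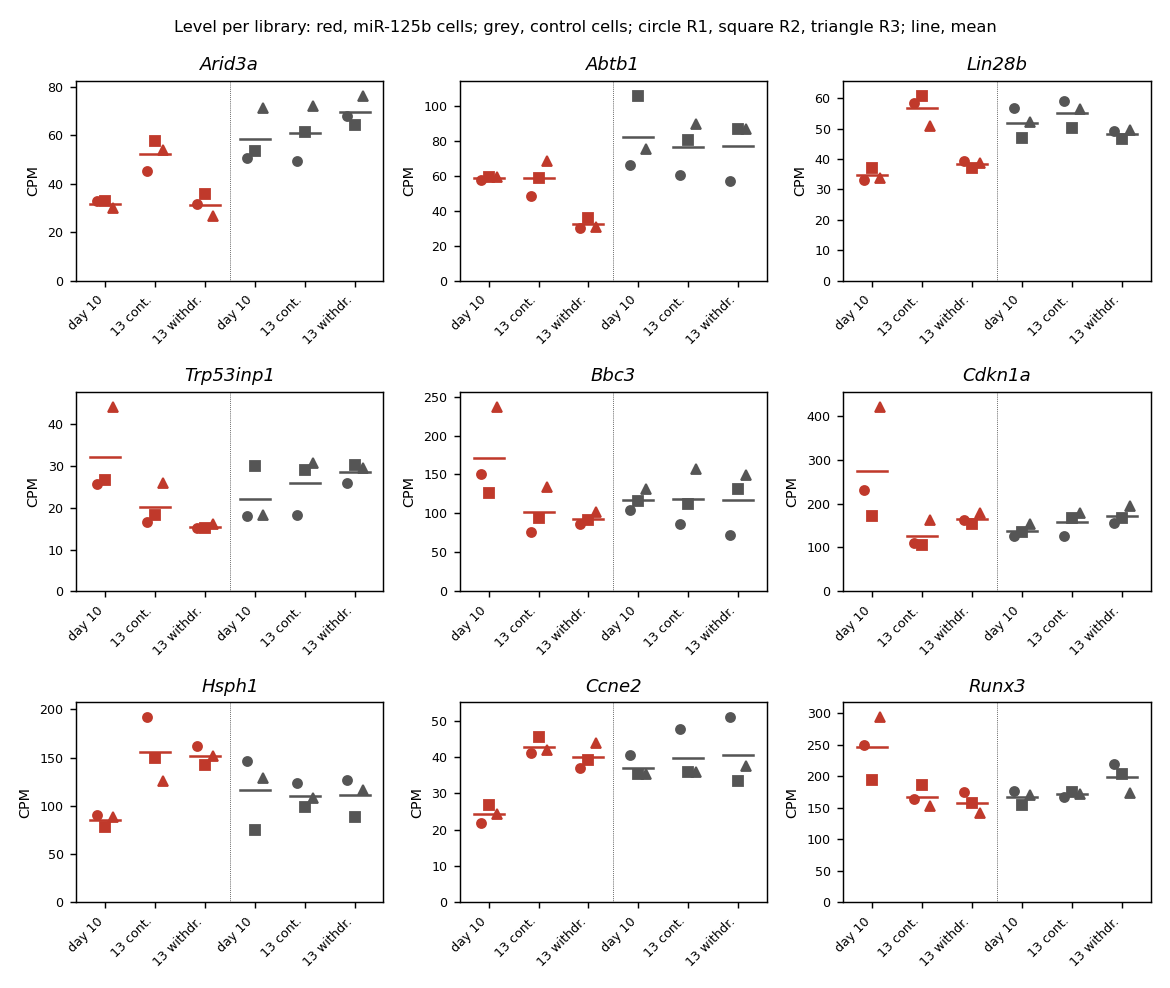
Each panel gives the CPM of 1 gene (y axis, from 0) in miR-125b cells (red) and control cells (grey) at day 10, at day 13 labelled continued and at day 13 labelled withdrawal, with a symbol per library and a line at the mean. Arid3a and Lin28b are low at day 10 and in the libraries labelled withdrawal, Abtb1 is low only in the latter among the miR-125b groups plotted, and Trp53inp1, Bbc3 and Cdkn1a have their highest value in day 10 R3.

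Genes of DNA synthesis were on the higher side after the 3 days. Of 43 DNA replication genes, all tested, 8 were higher and 0 lower, beside 2.82% and 2.51% of all genes, and 42 of the 43 had a log2 fold change above 0. The list median was 0.21, against -0.02 over all genes and -0.08 for the list in control cells (-0.14 without control withdrawal R1). The 8 were the helicase subunits Mcm2, Mcm3 and Mcm4, the helicase loader Cdc6, the polymerase subunit Pola1, the nucleotide synthesis enzymes Rrm2 and Tyms, and Uhrf1, which maintains DNA methylation. Cdc6 had 61.3, 60.1 and 57.9 CPM at day 10 and 79.6, 76.4 and 85.8 CPM in the libraries labelled withdrawal (0.43 ± 0.09, edgeR adjusted p 0.0180). Rrm2 had 236, 225 and 203 CPM against 295, 267 and 297 CPM (0.37 ± 0.08, edgeR adjusted p 0.0192). In both genes the groups did not overlap, while in control cells the changes were -0.02 and -0.11. None of the 8 passed without the block.

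Regulators of entry into S phase moved in both directions, and the counts here stand beside 2.82% higher and 2.51% lower among all genes. Of 27 such genes 3 were higher (Ccne2, Skp2 and E2f3) and 1 lower (Cdkn1a). Ccne2, cyclin E2, had 21.9, 26.8 and 24.3 CPM at day 10 and 37.1, 39.3 and 44.0 CPM in the libraries labelled withdrawal, a rise of 1.64-fold (0.72 ± 0.13, edgeR adjusted p 0.0137, and 0.0424 without the block). Skp2, a ubiquitin ligase subunit that removes cell cycle inhibitors, had 42.7, 43.2 and 42.8 CPM against 56.5, 57.8 and 56.7 CPM (0.41 ± 0.10, edgeR adjusted p 0.0241). The groups of Skp2 did not overlap. Of 38 mitosis genes 1 was higher, the kinesin Kif20a (0.46 ± 0.11, edgeR adjusted p 0.0264), and the list median was 0.08. Of 37 replication-dependent histone genes 0 were higher and 2 lower, Hist1h2bc (-1.04) and Hist3h2ba (-1.26), with a list median of -0.27 (-0.17 without day 10 R1 and -0.49 without withdrawal R1).

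Targets of p53, the transcription factor of the DNA damage response, had calls on the lower side only. Of 33 tested, 0 were higher and 7 lower, beside 2.82% and 2.51% of all genes, with a median of -0.34 in miR-125b cells and 0.09 in control cells (0.05 without control withdrawal R1). The 7 were Cdkn1a, Bbc3, Trp53inp1, Dcxr, Psrc1, Pmaip1 and Fas, and Bbc3 and Trp53inp1 also stand in the list of miR-125b targets. Cdkn1a, which encodes the cell cycle inhibitor p21, had 231, 171 and 421 CPM at day 10 and 163, 154 and 177 CPM in the libraries labelled withdrawal (-0.68 ± 0.18, edgeR adjusted p 0.0357). The groups overlapped, since day 10 R2 lay below withdrawal R3. Dcxr, a carbonyl reductase, had 32.8, 29.3 and 41.0 CPM against 22.7, 17.7 and 18.7 CPM, with no overlap (-0.80 ± 0.17, edgeR adjusted p 0.0184). Pmaip1, which encodes the pro-apoptotic NOXA, had 55.7, 38.0 and 79.8 CPM against 48.2, 31.2 and 44.2 CPM, and fell by 0.46 ± 0.13 on the log2 scale (edgeR adjusted p 0.0417). Day 10 R3 was the highest library for each of these 3 genes. Without it the list median was -0.15, Cdkn1a stood at -0.36 and Pmaip1 at -0.31.

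Some genes of the interferon response, which cells switch on against viruses, were lower too. Of 32 tested, 0 were higher and 7 lower, beside 2.82% and 2.51% of all genes, 5 had a value above 0, and the median was -0.50 against 0.02 in control cells (0.09 without control withdrawal R1). The 7 were Dhx58 and Rsad2, which act in RNA sensing and antiviral defense, Ifi27l2a, Isg20 and Xaf1, and the antigen processing genes Tap1 and Psmb9. Dhx58 had 5.81, 6.49 and 11.0 CPM at day 10 and 1.84, 3.91 and 3.41 CPM in the libraries labelled withdrawal (-1.37 ± 0.29, edgeR adjusted p 0.0184). Tap1, a subunit of the peptide transporter, had 82.7, 57.3 and 111 CPM against 53.5, 51.2 and 58.7 CPM (-0.59 ± 0.14, edgeR adjusted p 0.0239), and day 10 R2 lay below withdrawal R3. Psmb9, an immunoproteasome subunit, had 67.3, 46.7 and 81.8 CPM against 44.1, 29.7 and 47.2 CPM, where withdrawal R3 lay above day 10 R2 (-0.69 ± 0.17, edgeR adjusted p 0.0273). The list of MHC class I and antigen loading genes had 18 members, with 0 higher and 4 lower beside the same shares of all genes, a median of -0.39 here and -0.12 in control cells (-0.01 without control withdrawal R1). Its 4 lower genes were Tap1, Psmb9, Tapbp and the nonclassical class I gene H2-T23, so it shares 2 with the interferon list.

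Several signalling and stress lists had lower members, beside 2.82% higher and 2.51% lower among all genes. The NF-kB and inflammatory genes had a summed level of 534.5 to 555.2 CPM at day 10 and 535.6 to 553.8 CPM in the libraries labelled withdrawal. Of these 17 genes 0 were higher and 3 lower (median -0.31, control 0.07). That median was -0.19 without withdrawal R2, -0.55 without withdrawal R1 and -0.50 without day 10 R2. Nfkbia, the inhibitor that NF-kB itself induces, had 14.2, 13.3 and 18.8 CPM at day 10 and 8.44, 9.21 and 10.1 CPM in the libraries labelled withdrawal (-0.74 ± 0.14, edgeR adjusted p 0.0137). Relb, an NF-kB subunit, had 7.09, 8.52 and 7.40 CPM against 3.41, 4.61 and 4.37 CPM (-0.90 ± 0.20, edgeR adjusted p 0.0192), and neither gene's groups overlapped. Traf1, at most 1.98 CPM in these 6 libraries, was the other lower member. Of 30 immediate early genes 2 were lower, Ier3 (-0.87 ± 0.23) and Ier5 (-0.59 ± 0.12). Of 30 lysosome and autophagy genes 4 were lower, Gla, Grn, Wipi1 and Ulk1, the autophagy kinase, and the median was -0.19. Of 28 hypoxia and glycolysis genes 1 was lower, Ndrg1 (-0.95 ± 0.25, edgeR adjusted p 0.0356), although 26 of the 28 had a value below 0. The medians of that list were -0.40 in miR-125b cells and 0.38 in control cells, and by pair -0.41 in R1, 0.01 in R2 and -0.73 in R3. Without day 10 R1 the median in miR-125b cells was -0.26. Gsta4 was the 1 lower gene among 22 of oxidative stress and NRF2.

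Of 31 genes of amino acid supply and the ATF4 stress response 3 were higher, the tryptophan tRNA ligase Wars (0.35 ± 0.08) and the mitochondrial one-carbon enzymes Mthfd2 (0.35 ± 0.10) and Shmt2 (0.27 ± 0.08). Of 20 unfolded protein response genes none passed, with a median of 0.17 and 18 of 20 above 0. Fasn, fatty acid synthase, had 486, 481 and 460 CPM against 595, 641 and 645 CPM (0.40 ± 0.10, edgeR adjusted p 0.0356) and was the 1 member called among 19 of its list. In cholesterol synthesis 1 of 25 was higher, Hsd17b7 (0.47 ± 0.12). Ribosomal protein genes had shares of calls near those of all genes (2.82% higher and 2.51% lower). Of 80 genes for cytosolic ribosomal proteins 0 were higher and 3 lower, Rpl28 and Rps14 among them, with a median of -0.15 and 5 of 80 above 0. These genes have processed copies in the genome, so their counts are uncertain. Of 76 genes for mitochondrial ribosomal proteins 3 were higher, Mrps22, Mrpl3 and Mrps2, with a median of 0.10 (0.05 without day 10 R3) and 61 of 76 above 0. Mrps2 stood at 0.40 ± 0.11, and at 0.26 without day 10 R3. Of 12 mitochondrially encoded genes mt-Co2 was higher, at 7.22, 6.70 and 7.57 CPM against 14.6, 15.6 and 11.8 CPM (0.99 ± 0.28, edgeR adjusted p 0.0472), beside 0.65 in control cells (0.31 without control withdrawal R1), and its reads may be shared with nuclear copies. In the microRNA machinery Xpo5, which exports precursor microRNAs from the nucleus, rose from 56.8, 62.5 and 58.9 CPM to 81.0, 76.4 and 91.7 CPM (0.48 ± 0.13, edgeR adjusted p 0.0358). Ago4, an Argonaute protein, fell from 2.56, 2.33 and 3.19 CPM to 1.35, 1.22 and 0.64 CPM (-1.38 ± 0.30, edgeR adjusted p 0.0185). The JAK-STAT feedback and TGF-beta lists, of 25 tested genes each, had 0 calls and medians of -0.10 and -0.13. The JAK-STAT median was -0.05 without day 10 R1 and -0.06 without withdrawal R2 or R3, and without day 10 R2 the TGF-beta median was -0.06.

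**Figure D3:**
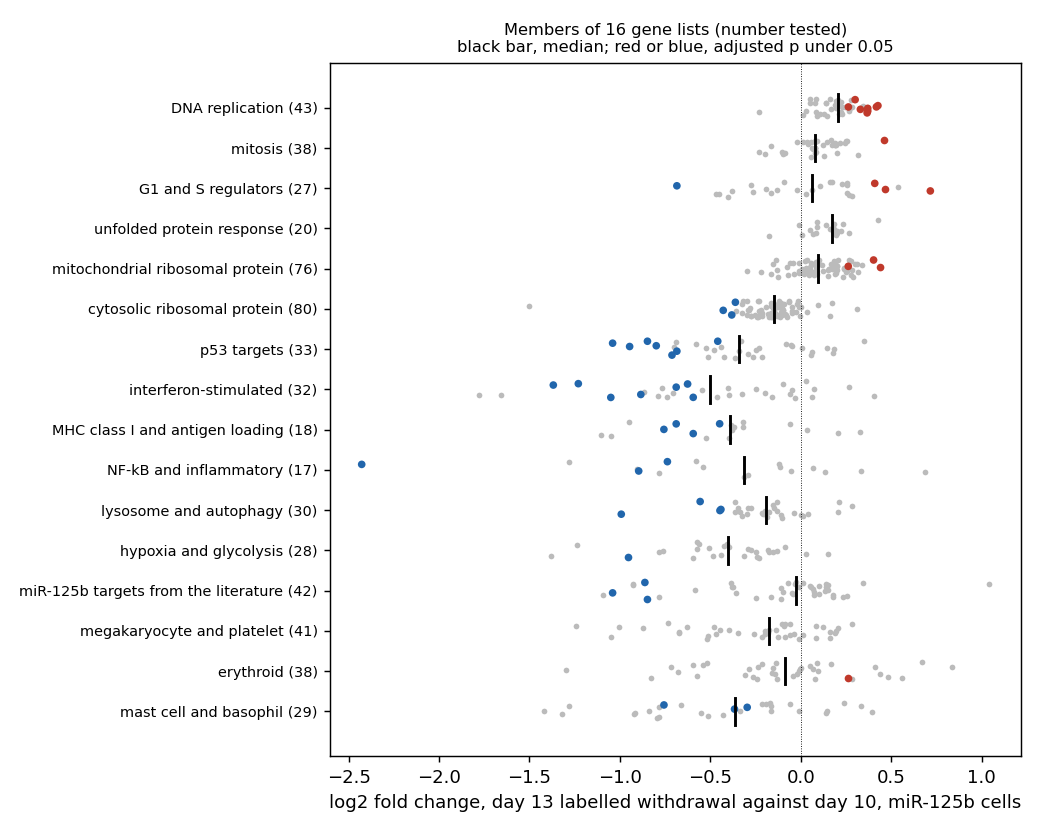
Each row is a gene list with its number of tested members, each point a member, the x axis the log2 fold change of the libraries labelled withdrawal against day 10, and the black bar the list median. The 8 called DNA replication genes (red) lie to the right of 0 and the 7 called p53 targets and 7 called interferon-stimulated genes (blue) to the left, while the megakaryocyte and platelet row has no coloured point.

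Few lineage genes passed the test, and their counts stand beside 2.82% higher and 2.51% lower among all genes. Of 41 megakaryocyte and platelet genes none passed, with a median of -0.18 (0.18 in control cells), and 10 of 41 were above 0. The median was -0.09 without either withdrawal R3 or day 10 R1. Of 38 erythroid genes 1 was higher, Hemgn, a nuclear protein of blood progenitors, at 158, 177 and 170 CPM against 191, 211 and 202 CPM (0.26 ± 0.08, edgeR adjusted p 0.0481). Of 29 stem and progenitor genes none passed (median -0.02). Of 29 mast cell and basophil genes 3 were lower: Alox5, which makes leukotrienes (-0.30 ± 0.08), Slc18a2, the vesicular monoamine transporter (-0.76 ± 0.20), and Srgn, the granule proteoglycan (-0.37 ± 0.11). The mast cell median was -0.37 in miR-125b cells and -0.39 in control cells, where none of them passed, and -0.56 in miR-125b cells without withdrawal R2. Of 16 monocyte, macrophage and dendritic cell genes 2 were lower, the myeloid transcription factor Spi1, at 72.0, 61.3 and 68.3 CPM against 53.9, 41.0 and 50.9 CPM (-0.47 ± 0.12, edgeR adjusted p 0.0356), and the signalling adaptor Tyrobp (-0.99 ± 0.22, edgeR adjusted p 0.0214). The summed level of the 16 was 153.5 to 155.5 CPM at day 10 and 107.4 to 114.7 CPM in the libraries labelled withdrawal, with Csf1r at 56 counts in all 3 day 10 libraries and 22 in the 3 withdrawal libraries. The medians of the interferon, MHC class I and NF-kB lists were below 0 as well, although the summed level of the NF-kB list did not fall. Any part of this fall of monocyte, macrophage and dendritic cell genes in those lists was not tested. Of 12 neutrophil granule, 7 lymphoid, 2 hepatocyte, 9 endothelial and 7 stromal genes none passed.

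The largest rises and falls, among genes of at least 2 in average log2 CPM that moved the same way in 3 of 3 pairs, were mostly outside these lists. The 12 largest rises ran from 2.03 ± 0.37 for Gm14303, annotated as a processed pseudogene and so of uncertain counts, at 3.19, 2.43 and 1.57 CPM against 9.20, 10.5 and 10.0 CPM, to 0.69 ± 0.16 for Nkrf, a repressor of NF-kB target genes. Hsph1, a heat shock protein of the HSP110 family (ENSMUSG00000029657, chr5:149614287-149636376, minus strand), had 90.2, 78.1 and 87.9 CPM at day 10 and 162, 142 and 151 CPM in the libraries labelled withdrawal, all above all, a rise of 1.78-fold (0.83 ± 0.13, edgeR adjusted p 0.0133). The libraries labelled continued had 192, 149 and 126 CPM. Control cells had 146, 74.9 and 129 CPM at day 10 and 127, 88.7 and 117 CPM at day 13 withdrawal, and the difference between the arms was 0.89 ± 0.19 (edgeR adjusted p 0.0347). The other rises were Gm38973, mt-Co2, the ion channel gene Trpa1, Kbtbd8, the tRNA methyltransferase gene Trmt61a, the ribosome assembly factor gene Pno1, Ccne2, Lbhd1 and the deubiquitinase gene Otud6b. Trmt61a, for example, had 22.7, 22.1 and 17.6 CPM against 30.5, 33.9 and 42.4 CPM (0.76 ± 0.16, edgeR adjusted p 0.0185).

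The 12 largest falls ran from -1.55 ± 0.36 for Ypel3 to -1.26 ± 0.26 for Grina. Ypel3, a yippee-like protein known for slowing proliferation, had 28.9, 35.2 and 30.3 CPM at day 10 and 9.04, 17.5 and 8.001 CPM in the libraries labelled withdrawal, without overlap (edgeR adjusted p 0.0287). Pik3ip1, an inhibitor of PI3 kinase, had 21.7, 12.4 and 23.7 CPM against 7.52, 7.35 and 5.65 CPM (-1.51 ± 0.32, edgeR adjusted p 0.0184). Tspoap1, a protein that binds the mitochondrial translocator protein, had 124, 138 and 153 CPM against 54.3, 72.9 and 47.6 CPM, a 2.42-fold fall (-1.28 ± 0.23, edgeR adjusted p 0.0137). In control cells Tspoap1 had 122, 141 and 92.0 CPM at day 10 and 126, 212 and 120 CPM at day 13 withdrawal, and the arms differed by -1.62 ± 0.32 (edgeR adjusted p 0.0352). The remaining falls were Il1bos, Tanc2, Dhx58, Cox6b2, Mettl27, 2900052L18Rik, Pbx4, Atp1b2 and Grina. Il1bos is antisense to the interleukin 1 beta gene, and reads of both strands may not have been told apart. For 2900052L18Rik, at 23.7, 19.5 and 46.3 CPM against 13.5, 9.74 and 10.8 CPM, day 10 R3 was again the highest library.

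In control cells the same 3 days gave 0 called genes by edgeR with the block (0% of those tested), 0 without it, and 1511 and 887 at an unadjusted p under 0.05. DESeq2 called 52. The difference between the arms was tested directly as an interaction, which called 128 genes (0.954%), 86 of them (0.641%) with a larger value in miR-125b cells and 42 (0.313%) with a smaller one. Of the 128, 100 were also among the 715, and 127 had opposite signs in the arms. The 128 were selected by the difference between these same libraries, so both counts partly follow from the selection and are no separate support. The share of opposite signs among all genes was not counted. Without the block 0 passed (1627 at an unadjusted p under 0.05). Leaving out 1 of the 12 libraries gave 0 to 1065 genes. It gave 0 without miR-125b withdrawal R2 or R3, miR-125b day 10 R1 or R3, control withdrawal R2, or control day 10 R1 or R3, and 118, 1065, 902, 199 and 247 without miR-125b withdrawal R1, miR-125b day 10 R2, control withdrawal R1, control withdrawal R3 and control day 10 R2. All 128 genes passed with the same sign without control withdrawal R1, the library that stood apart, where 528 of the 902 had a larger and 374 a smaller value in miR-125b cells.

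The 5 genes of lowest p with a larger value in miR-125b cells were Dnaja1, Trmt61a, Otud6b, Mrpl3 and Sf3b4. Dnaja1, a co-chaperone of HSP70, had 191, 156 and 180 CPM at day 10 and 267, 200 and 272 CPM in the libraries labelled withdrawal of miR-125b cells, and 274, 175 and 257 CPM against 218, 136 and 215 CPM in control cells. It rose in miR-125b cells by 0.48 ± 0.09, stood at -0.31 ± 0.09 in control cells without passing there, and the difference was 0.79 ± 0.13 (edgeR adjusted p 0.0273). Sf3b4, a splicing factor subunit, had 146, 149 and 123 CPM against 180, 179 and 184 CPM in miR-125b cells and 203, 177 and 197 CPM against 155, 134 and 167 CPM in control cells.

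The 5 with a smaller value were Mxd4, Gm44044, Pnrc1, Cmas and Runx3. Mxd4, a partner of MAX that opposes MYC, had 44.9, 54.9 and 55.1 CPM against 30.7, 39.1 and 29.3 CPM in miR-125b cells and 41.8, 59.5 and 40.2 CPM against 74.6, 61.5 and 50.3 CPM in control cells (difference -1.06 ± 0.18, edgeR adjusted p 0.0273). Control withdrawal R1 was the highest of these, and without it the difference was -0.86 ± 0.15 and the control change 0.21 instead of 0.41. Runx3, a transcription factor of the family that includes the megakaryocytic RUNX1, had 250, 194 and 294 CPM against 175, 157 and 142 CPM in miR-125b cells and 176, 154 and 170 CPM against 220, 203 and 173 CPM in control cells (difference -0.89 ± 0.17, edgeR adjusted p 0.0302). Its 3 libraries labelled withdrawal lay below its 3 day 10 libraries in miR-125b cells. Gm44044, a predicted gene, had at most 4.51 CPM in these 12 libraries, in control withdrawal R1. Its difference was -3.77 ± 0.69 and, without that library, -2.70 ± 0.53, and its control change 1.41 and 0.35.

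**Figure D4:**
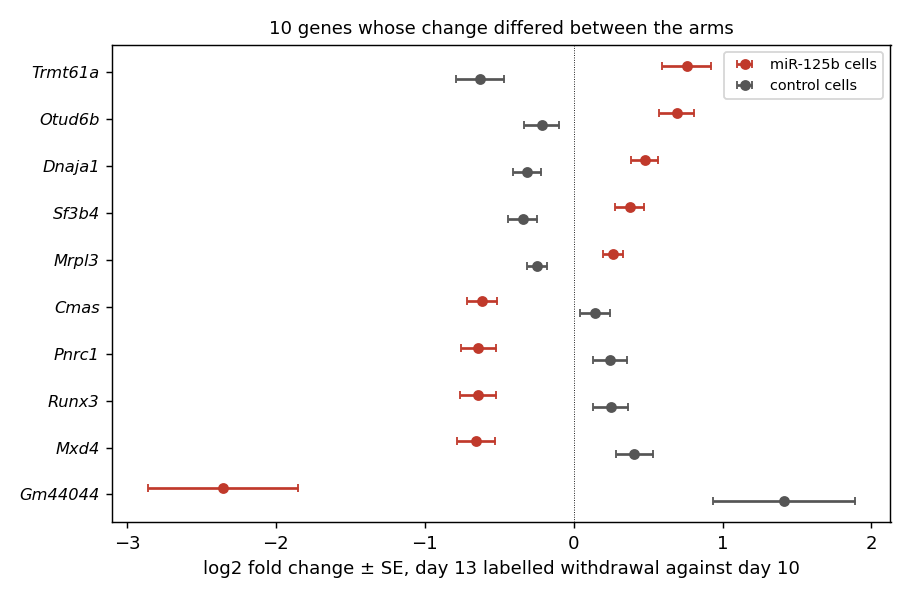
The x axis gives the log2 fold change of day 13 labelled withdrawal against day 10 with its SE for the 10 genes of lowest p in the test of the difference between the arms, in miR-125b cells (red) and control cells (grey). The 5 upper genes lie above 0 in miR-125b cells and below 0 in control cells, and the 5 lower genes the other way round.

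The libraries labelled continued are set beside these values because they carry the label of the same 3 days with the drug kept. Against the same day 10 libraries they had 1800 called genes (13.4%), 870 higher and 930 lower, and 474 without the block (293 higher, 181 lower). For Hsph1 the log2 fold changes were 0.83 labelled withdrawal and 0.86 labelled continued, for Ccne2 0.72 and 0.81, for Tspoap1 -1.28 and -0.89, for Cdkn1a -0.68 and -1.09, and for Bbc3 -0.85 and -0.75. For the lists, the medians were 0.21 and 0.22 for DNA replication, -0.34 and -0.48 for p53 targets, and -0.50 and -0.58 for interferon-stimulated genes. For Abtb1 they were -0.86 and -0.01. Of the 715 genes, 1 (Abtb1) also passed in the direct comparison of the libraries labelled withdrawal with those labelled continued.

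Promoters were read for the heat shock and interferon genes, since the called members of each group had the same direction. Of 7 Hsp and Dnaj genes that were higher, 6 matched a RefSeq promoter (GRCm38.p6, 250 bases before to 50 after the start), and 2 of the 6 held the core of a heat shock element, TTCNNGAA, searched on both strands, against 9.6% of all 27025 genes with a promoter. They were Hsph1 and Hspd1, the mitochondrial chaperonin. The interferon-stimulated response element core (GAAA, any 2 bases and GAAA again), on either strand, was in 11 of the 22 listed genes with a promoter (50%) and in 3.99% of all. Of the 5 lower ones among the 22 it was in 1, Rsad2. The promoters of Hsph1 (chr5:149636287-149636586, minus strand) and Rsad2 (chr12:26456403-26456702, minus strand) follow with the matches in capitals, the Rsad2 match lying on the other strand.
Hsph1 promoter: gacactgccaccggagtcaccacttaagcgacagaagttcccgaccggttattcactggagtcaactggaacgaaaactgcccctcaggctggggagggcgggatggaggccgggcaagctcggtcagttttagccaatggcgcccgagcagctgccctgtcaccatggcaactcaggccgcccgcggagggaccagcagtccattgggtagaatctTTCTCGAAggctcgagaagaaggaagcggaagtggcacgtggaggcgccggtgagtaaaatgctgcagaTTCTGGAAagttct
Rsad2 promoter: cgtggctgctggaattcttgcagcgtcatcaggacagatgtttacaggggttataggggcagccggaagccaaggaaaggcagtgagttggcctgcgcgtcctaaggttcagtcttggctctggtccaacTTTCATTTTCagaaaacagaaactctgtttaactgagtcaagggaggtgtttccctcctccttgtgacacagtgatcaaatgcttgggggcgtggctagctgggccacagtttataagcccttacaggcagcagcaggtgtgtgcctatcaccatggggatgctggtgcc
A match says only that these letters are present in the window.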

How the data were processed

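Total RNA of fetal liver cells was purified on columns and sequenced by a standard Illumina protocol, per the labels' protocols. The submitters' processing notes name fastp, HISAT2 2.0.5, featureCounts and the mouse build mm10. Strand setting and annotation are not given in the sources used here. The authors deposited whole-number read counts for 47069 gene identifiers in 24 libraries, 1 column per library, and 46488 identifiers matched a name in GENCODE M21 (GRCm38), whose coordinates are printed. At most 0.0638% of a library's counts lay on unnamed identifiers. No columns were left unmatched, and no 2 replicates of a group agreed within sampling noise (chi-square per degree of freedom 10.7 to 99.9 over the pairs in all groups).

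The counts were tested with edgeR 4.0.16 in R 4.3.3: TMM scaling, filterByExpr by group (13419 genes left), and a quasi-likelihood model (glmQLFit, robust, glmQLFTest) over all 24 libraries with 8 groups and the replicate number as a block. It had 14 residual degrees of freedom. P-values were two-sided and adjusted by Benjamini-Hochberg over all 13419 genes. SEs were derived from the F statistic, and CPM are TMM-scaled. A gene detected at 0 was given a limit of 3 counts per library, which covers counting error only. The labels do not say what a replicate number shares. Same-numbered libraries of day 10 and withdrawal correlated, as deviations from their group means across genes, at 0.359 to 0.672, and differently numbered ones at -0.563 to 0.008. Deviations cancel within a group, so the negative values between different numbers partly follow from the positive ones and are no separate evidence. The numbers count as pairs here by their titles, and only the first range bears on that. The test was run on simulated data first.

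Named genes were Gata1, Arid3a, the 12 largest rises and 12 largest falls whose mean log2 CPM reached 2 and whose 3 of 3 pairs had the same direction, up to 3 called members of each of 34 lists by lowest p, and up to 5 per direction in the difference between arms and in withdrawal against continued. Of the genes and markers these rules cover, 2 are not reported here. Further members in the sentences that list every called gene of a list were named after their values were seen. Lists, members and tests were chosen with earlier results of these data known, so no list is independent evidence. Alternatives were the fit without the block, DESeq2 1.42.0, RLE scaling, no filter, edgeR's newer quasi-likelihood estimate, fewer libraries and each library left out, and, chosen after the data were seen, every comparison without control withdrawal R1.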

Additional observations from a re-analysis of the deposited data

Results flagged for a closer look

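The change from day 10 to day 13 differed between miR-125b and control cells by a test of the difference itself for 128 genes, and the 10 of lowest p are given here with that difference on the log2 scale (miR-125b minus control). It was 0.79 for Dnaja1, 1.39 for Trmt61a, 0.91 for Otud6b, 0.51 for Mrpl3 and 0.72 for Sf3b4. It was -1.06 for Mxd4, -3.77 for Gm44044, -0.88 for Pnrc1, -0.76 for Cmas and -0.89 for Runx3. Each of the 10 moved the same way in 3 of 3 pairs of miR-125b cells, which are among the libraries that the test used. These calls rest on the replicate block, since 0 genes passed without it. Without control withdrawal R1, the library with the highest mitochondrial share, all 10 still passed, with -0.86 for Mxd4 and -2.70 for Gm44044.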

How the results depend on the processing

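The calls depended on the replicate block and on single libraries, and the sizes of the changes less so. Without the replicate block (the pairing by number) 24 genes were called from day 10 to withdrawal in miR-125b cells (715 with it), 0 in the difference between arms (128) and 0 in withdrawal against continued (7). For these 3 comparisons and control cells, DESeq2 gave 1211, 658 (356 higher, 302 lower, against 86 and 42), 16 and 52. RLE scaling gave 57 in the difference between arms, and a fit to the compared libraries alone gave 1822, 0 and 301 in the first 3. A fit to the 12 miR-125b libraries gave 1680 in the first. Leaving out 1 library gave 0 to 1692, 0 to 1065, 0 to 2 and, in control cells, 0 throughout, and without control withdrawal R1 the first gave 1553 and the third 8 (chosen after the data were seen). The other settings stayed within 1.5 times. Of the 76 named genes called from day 10 to withdrawal, 6 were still called without the block, 75 with DESeq2, 72 with RLE scaling, 58 with no filter on low counts and 75 with the compared libraries alone, and none of the 76 changed sign in these fits. When 1 library was left out, sign changes were seen in the medians of the literature targets and of the erythroid, neutrophil granule, stem and progenitor, lymphoid, fibroblast, cholesterol, fatty acid, NRF2 and mitochondrially encoded lists. Of single genes, Arid3a ranged from -0.14 to 0.11 (0.01 without day 10 R1, 0.009 without day 10 R2), and Rapgef4 ranged from -0.47 to 0.21 (0.05 without withdrawal R3). The cause of these shifts was not tested.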

Other observations

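Gene families read off by symbol after the values were seen are described here by their counts, beside 2.82% higher and 2.51% lower among all genes. Of 23 importin and exportin genes (Kpn, Ipo, Xpo, Tnpo and Cse1l), which carry proteins and RNA through the nuclear pore, 13 were higher and 0 lower in the libraries labelled withdrawal, and 22 of 23 lay above 0, with a median log2 fold change of 0.34 (0.09 in control cells). Cse1l, the export receptor of importin alpha, stood at 0.60 ± 0.12 (SE, edgeR adjusted p 0.0168), Xpo1, the main protein exporter, at 0.40 ± 0.08 (edgeR adjusted p 0.0180) and Kpnb1, importin beta, at 0.37 ± 0.10 (edgeR adjusted p 0.0417). Of 19 nucleoporin genes 6 were higher and 0 lower, with a median of 0.34 (control median near 0). Nup35 stood at 0.47 ± 0.10 and Nup93 at 0.38 ± 0.08.

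Calls among protein folding and turnover genes were on the same side. Of 61 Hsp and Dnaj genes 7 were higher and 0 lower, with a median of 0.12 and 38 of 61 above 0. Besides Hsph1 and Dnaja1 these included Hspd1 (0.62 ± 0.12), Hsp90aa1 (0.49 ± 0.11) and Hspa4 (0.36 ± 0.11). All 8 chaperonin genes (Cct and Tcp1) lay above 0, and 3 passed: Cct6a, Cct8 and Cct3. Of 34 proteasome subunit genes 4 were higher and 0 lower. Of 55 initiation factor genes 7 were higher and 1 lower, Eif3f at -0.42 ± 0.11. Of 5 yippee-like genes 2 were lower, Ypel3 and Ypel5, and all 5 lay below 0. Without the replicate block 1 initiation factor gene and 1 splicing factor SF3 gene passed, and 0 genes of the other families with higher members. These families were picked for how they moved, so their counts test nothing.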
